A study of Arabidopsis thaliana with 4 samples.

Results

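MAPKKK13 to MAPKKK21 are 9 genes of Arabidopsis thaliana that encode kinases at the entry of MAP kinase cascades. They were taken by symbol, through the transcript identifier of each array probe and a table of TAIR10.1 genes, and all 9 were found among 25410 genes with a probe. They were picked because their Cy5 over Cy3 ratios stood high after 2 h and 5 h of salt. Those 2 contrasts against untreated seedlings are therefore described here without a test. The difference between 5 h and 2 h was not used in the choice and was tested.

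RNA came from whole Col-0 wild-type seedlings, 14 d old, grown in short days (8 h of light and 16 h of dark). Seedlings were placed on paper soaked in 300 mM NaCl for 0 h, 2 h or 5 h, and 2 arrays were made for 2 h and 2 for 5 h. On each array the 0 h RNA was labelled with Cy3 and the salt RNA with Cy5, and the dyes were never exchanged. The design text gives 2 biological replicates. The 0 h sample carries no number and was counted as 1 control sample, so its own spread was not measured and a dye bias of a gene cannot be told apart from salt against 0 h. No seedlings on paper without NaCl were analysed, so salt, transfer and, unless sampling was matched, hour of the day cannot be told apart. In RNA of whole seedlings, a change in the cells that express a gene and a change per cell cannot be told apart either.

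In a MAP kinase cascade a MAP kinase kinase kinase (MAPKKK) phosphorylates a MAP kinase kinase (MKK), which phosphorylates a MAP kinase (MPK). MAPKKK13 to MAPKKK21 are small kinases of the MEKK type and form one clade of that group in Arabidopsis. Several of them act through MKK3 and the group C kinases MPK1, MPK2, MPK7 and MPK14, a module in which the MAPKKK protein itself is made on demand, so that transcript level is part of its control. MAPKKK17 and MAPKKK18 are the best known entry points of this module in abscisic acid signalling, MAPKKK14 has been linked to the response to wounding, and MAPKKK20 to osmotic stress.

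Median spot signals over all probes were 252 to 282 in Cy3 and 342 to 372 in Cy5, over backgrounds of 33 to 37.5 and 52.5 to 54, and 0 spots were saturated. The 4 arrays came from 1 slide read in 1 scan. After normexp background correction with an offset of 50 and loess, 20412 genes were kept. Their log2 ratios correlated across genes, which are not replicates, at r = 0.99 between the 2 h arrays and 0.995 between the 5 h arrays. All 4 shoot markers and all 5 root markers lay well above background at 0 h on each array. At 2 h the log2 changes of the shoot markers ran from −0.32 to 0.31 (1 higher, 1 lower) and those of the root markers from −0.75 to 0.91 (2 higher, 3 lower). At 5 h they ran from −1.10 to 0.28 (2 higher, 2 lower) and from −2.08 to 0.04 (0 higher, 3 lower, median −1.50). The salt signal of the root marker EXPA7 was not well above background on either 5 h array, so its value there, −1.69, is limited by the background. The part of the markers in the results below was not tested. The precision is limited by the number of arrays, 2 for each time.

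All 9 genes passed the filter on dim probes. MAPKKK14 passed only through its salt signal, since its 0 h signal was not well above background on any of the 4 arrays. The other 8 cleared background at 0 h as well as under salt on each of the 4 arrays. MAPKKK13 and MAPKKK19 had 2 probes each and the other members 1, and the brighter probe stood for the gene. Close relatives in this clade share sequence, and cross-hybridisation between them was not tested.

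MAPKKK18 (AT1G05100) had the highest log2 change of the 9 genes at both times by normexp with loess, and MAPKKK21 by the ratio of Feature Extraction, the software that read the arrays. Its median Cy3 intensity, in scanner units before dye normalization, was 184 and 141 at 0 h on the 2 h arrays and 184 and 179 on the 5 h arrays. Its Cy5 intensity was 7425 and 6888.5 at 2 h and 9349 and 9141 at 5 h. All salt spots stood far above all 0 h spots, and both 5 h spots above both 2 h spots. The normalized log2 ratio was 4.98 and 5.10 at 2 h and 5.21 and 5.26 at 5 h, with means of 5.04 ± 0.041 and 5.23 ± 0.041 (limma's moderated SE, 2 arrays per time, pooled over both times). This is 32.9-fold and 37.6-fold, and the gene ranked 21 and 15 among all kept genes by log2 change.

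MAPKKK17 (AT2G32510), the close relative of MAPKKK18 in abscisic acid signalling, lay lower in ratio and flat between the times. Its intensity was 185, 165, 186 and 185 at 0 h, 2408 and 2263 at 2 h, and 2473 and 2545 at 5 h. The salt spots of both times lay above all 0 h spots and close to each other. The log2 change was 3.35 ± 0.046 at 2 h (10.2-fold, rank 158) and 3.34 ± 0.046 at 5 h (10.1-fold, rank 211).

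**Figure D1:**
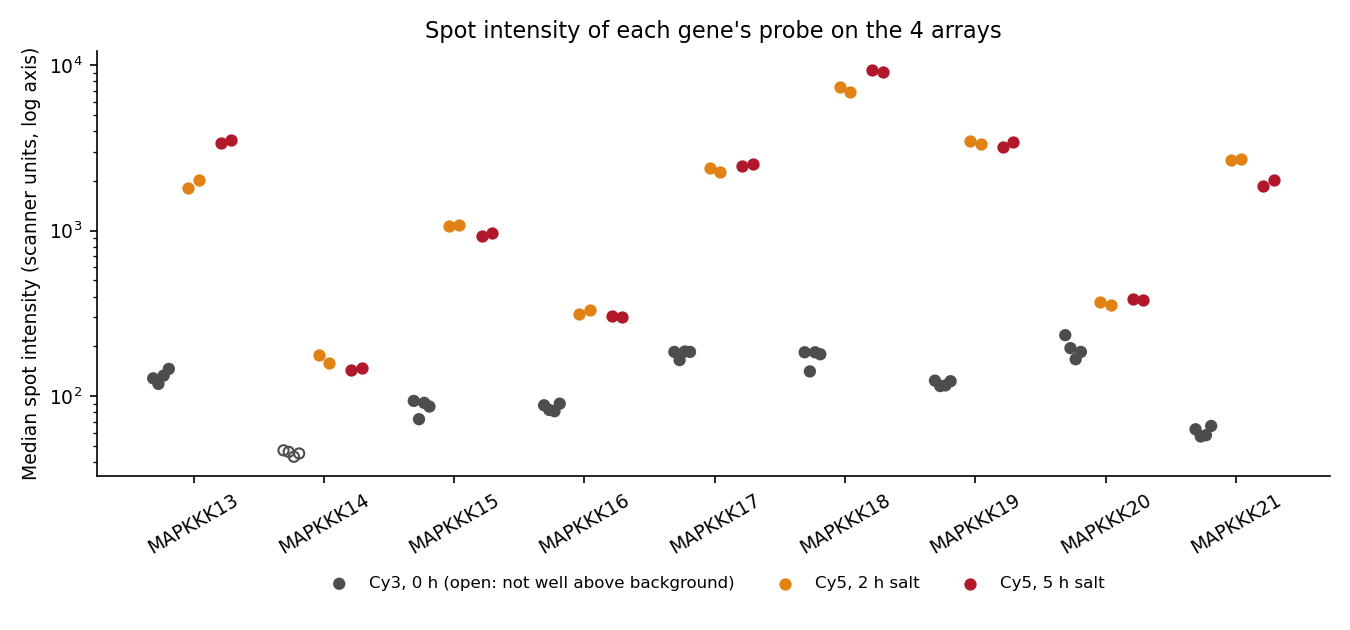
Median spot intensity (scanner units, log axis) of the probe of each gene, with Cy3 at 0 h on 4 arrays, then Cy5 at 2 h and at 5 h on 2 arrays each, every point being 1 spot. Heights are comparable only within a gene and a dye, because the dyes are not normalized to each other here. Cy5 read higher than Cy3 over all probes, so the size of a change is to be read from the log2 ratios. Salt spots lie above 0 h spots in every gene, widely for MAPKKK18 and narrowly for MAPKKK20, and MAPKKK14 is open at 0 h because its spots there are not well above background.

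MAPKKK19, MAPKKK20 and MAPKKK21 formed the most uneven group of relatives, with 2 of the larger changes and the smallest of the 9. MAPKKK21 (AT4G36950) had intensities of 63, 57, 58 and 66 at 0 h, 2683 and 2716.5 at 2 h, and 1862 and 2025 at 5 h. The 0 h spots were dim, though marked as well above background, and the 5 h spots lay below the 2 h spots. The log2 change was 4.83 ± 0.044 at 2 h (28.5-fold, rank 30) and 4.39 ± 0.044 at 5 h (21-fold, rank 62).

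MAPKKK19 (AT5G67080) had intensities of 124, 115, 116 and 123 at 0 h, 3487 and 3338.5 at 2 h, and 3227 and 3420 at 5 h. The spots of the 2 salt times overlapped and all lay above 0 h. The log2 change was 4.33 ± 0.047 at 2 h (20.1-fold, rank 57) and 4.31 ± 0.047 at 5 h (19.8-fold, rank 72). Its other probe was dim, with 0 h signals of 41 to 44.5 that were not well above background and salt signals of 151.5 to 172.5. That probe was at least 2.13-fold higher at 2 h and at 5 h.

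MAPKKK20 (AT3G50310) was the exception to the description of these genes as salt-induced. Its intensity was 233.5, 195, 167 and 185 at 0 h, 370 and 354 at 2 h, and 387 and 382 at 5 h. The salt spots lay above the 0 h spots, but by less than in any other member. The log2 change was 0.41 ± 0.04 at 2 h (1.33-fold, rank 4791) and 0.79 ± 0.04 at 5 h (1.73-fold, rank 3549). It missed a 2-fold change at both times, and also by the Feature Extraction ratio as given (log2 change 0.35 and 0.93). The median of all genes by that ratio was −0.145 at 2 h and −0.135 at 5 h, so its miss at 5 h depends on the centring. At 5 h the deposited log2 ratios put MAPKKK20 at 1.02, and plain local background subtraction put it at 1.

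MAPKKK13 (AT1G07150) was the member whose salt signal differed most between the times. Its intensity was 128, 118.5, 133 and 146 at 0 h, 1815 and 2024.5 at 2 h, and 3377.5 and 3548.5 at 5 h. The groups did not overlap. The log2 change was 3.56 ± 0.048 at 2 h (11.8-fold, rank 127) and 4.16 ± 0.048 at 5 h (17.9-fold, rank 84). The other probe of MAPKKK13 was not well above background in either channel on any array, with Cy5 signals of 61 to 66.

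MAPKKK14 (AT2G30040), the close relative of MAPKKK13 linked to wounding, was dim throughout. Its intensity was 47, 46, 43 and 45 at 0 h, 178 and 159 at 2 h, and 143 and 148 at 5 h. Salt spots lay well above background on all 4 arrays and 0 h spots on none, so only a bound can be given, computed from normalized channel levels. By that normalization MAPKKK14 was at least 2.14-fold higher at 2 h and at least 1.93-fold higher at 5 h. With scaling between arrays its fitted log2 change at 5 h was 0.89, below that bound. The mean log2 level was 7.36 at 2 h and 7.21 at 5 h, against 6.23 at 0 h.

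MAPKKK15 (AT5G55090) and MAPKKK16 (AT4G26890), another pair of relatives, differed from each other in size. MAPKKK15 had intensities of 93.5, 72.5, 91 and 86.5 at 0 h, 1071.5 and 1078 at 2 h, and 928 and 967 at 5 h. Its log2 change was 3.07 ± 0.055 at 2 h (8.42-fold) and 2.89 ± 0.055 at 5 h (7.39-fold). MAPKKK16 had intensities of 88, 82.5, 81 and 90 at 0 h, 311.5 and 331.5 at 2 h, and 306 and 302.5 at 5 h. Its log2 change was 1.43 ± 0.034 at 2 h (2.69-fold) and 1.39 ± 0.034 at 5 h (2.62-fold), and the 4 arrays lay between 1.38 and 1.43. In both genes all salt spots lay above all 0 h spots.

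Across the 9 genes the median log2 change was 3.35 at 2 h and 3.34 at 5 h, beside a median of 0 over all genes at each time. At 2 h 8 members stood at least 2-fold higher and 0 at least 2-fold lower, where limma called 9.75% and 2.33% of 20410 genes so. At 5 h the members' counts were again 8 and 0, where limma called 13.6% and 7.28% of 20412 genes so. These counts take MAPKKK14 at its fitted value, and its bound at 5 h, 1.93-fold, falls short of 2-fold. With no limit on size, limma called 41.4% of genes higher and 40.5% lower at 2 h, and 44.1% higher and 43.7% lower at 5 h. Nothing is read from these shares, because the members were chosen on these contrasts. Among the 100 highest log2 changes of all genes were 3 members at 2 h and 4 at 5 h. The 2 arrays of a time differed by at most 0.21 on the log2 scale in any member.

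**Figure D2:**
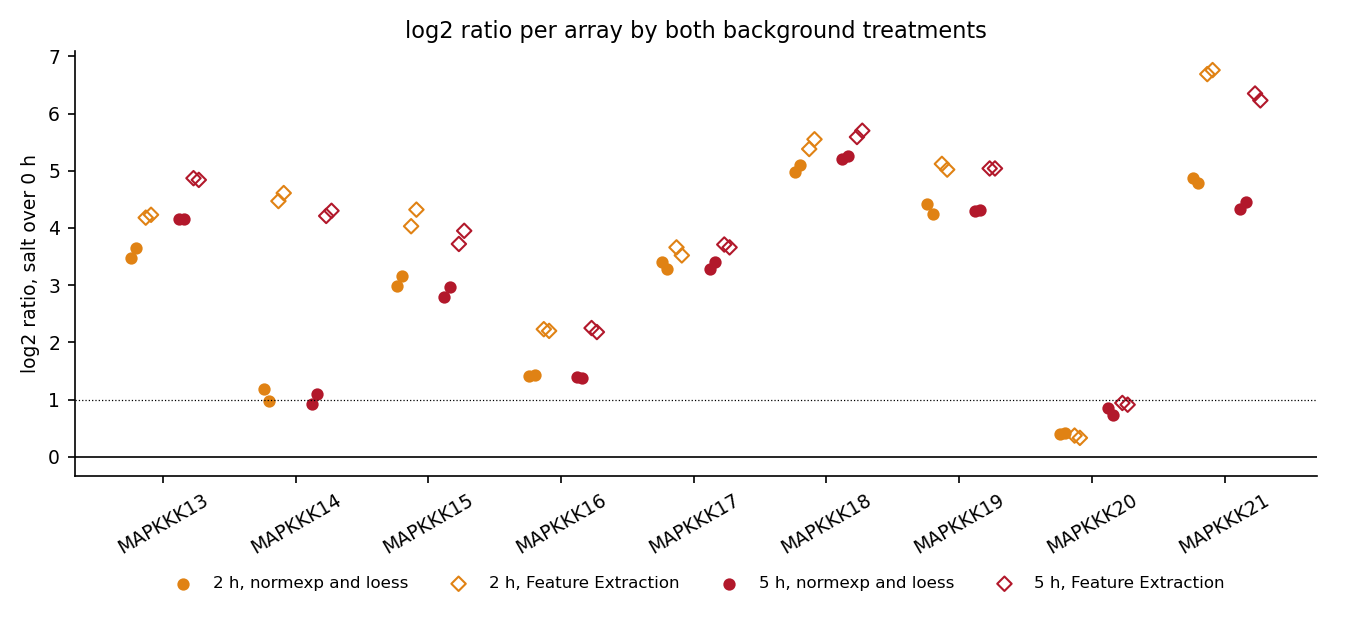
log2 ratio of salt over 0 h on each array, for normexp with loess (filled circles) and for Feature Extraction processed signals (open diamonds), at 2 h and 5 h. The dotted line marks a 2-fold change. Replicate arrays lie close together, MAPKKK20 lies below the line by both treatments, and the gap between treatments is widest for MAPKKK14 and MAPKKK21.

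The sizes of these changes differed between ways of background correction and normalization. An offset, here 50, draws ratios of dim spots toward 0 by its construction, and its part in these differences was not tested apart from that of dye normalization. By the Feature Extraction ratio MAPKKK21 was 106-fold higher at 2 h and 78.3-fold at 5 h, MAPKKK13 18.5-fold and 28.9-fold, and MAPKKK19 33.5-fold and 32.8-fold. MAPKKK15 was 18.1-fold and 14.2-fold higher by that ratio, and MAPKKK16 4.64-fold and 4.63-fold. MAPKKK18, with a brighter 0 h spot, was 44.3-fold and 50.1-fold higher. MAPKKK17 was 12-fold and 12.9-fold higher, less than 1.5 times its value above. The Feature Extraction ratio of MAPKKK14, at 23.3-fold and 19.1-fold, rests on a 0 h signal that is not well above background, so the bound is the value to use. MAPKKK18 had the highest ratio by normexp with loess and MAPKKK21 by Feature Extraction, so the order of these 2 genes was not settled by these data.

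**Figure D3:**
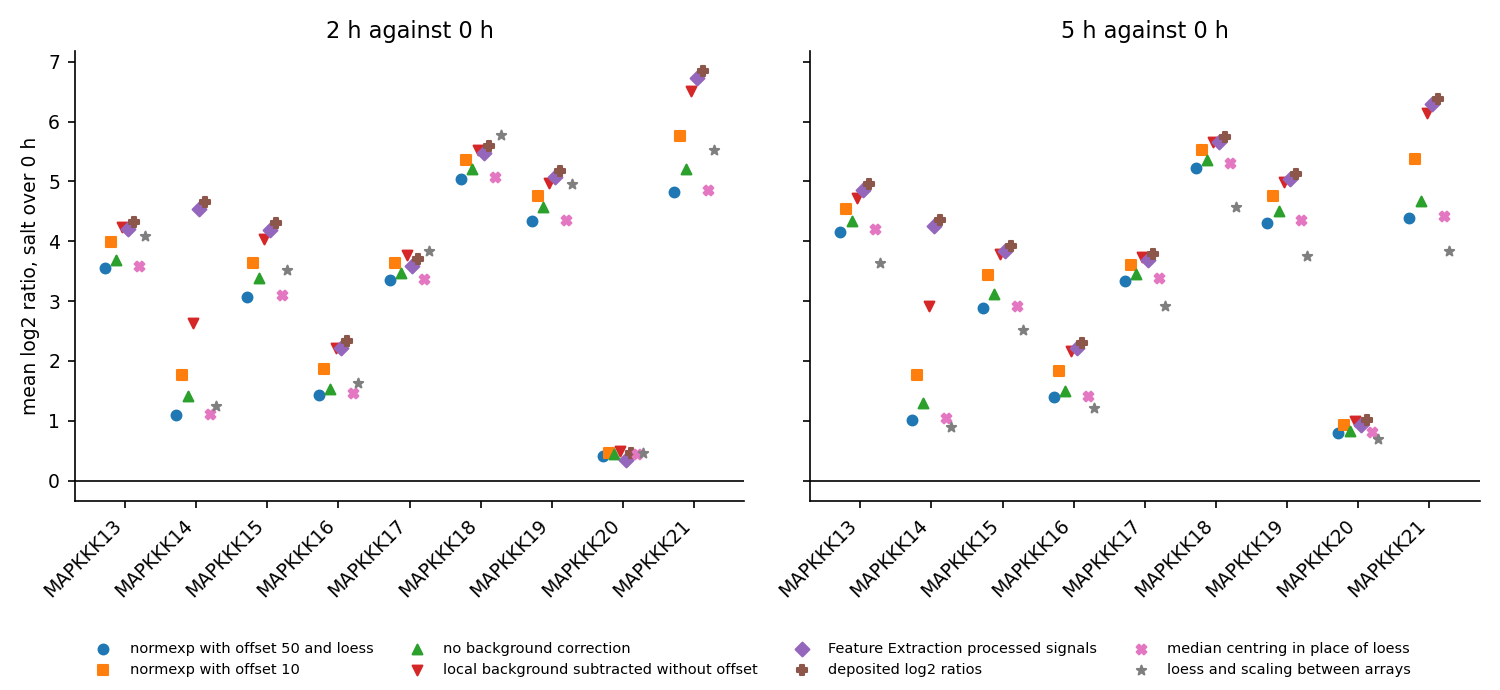
Mean log2 ratio of salt over 0 h of each member at 2 h (left) and 5 h (right) under 8 ways of background correction and normalization, 1 symbol for each. Every value lies above 0. The spread of symbols is wide for MAPKKK14 and MAPKKK21, whose 0 h spots are dim, and narrow for MAPKKK17 and MAPKKK20.

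The second comparison asked how the members differed between 5 h and 2 h of salt. A constant dye bias, and the control if it was 1 shared sample, drop out of it. MAPKKK13 and MAPKKK20 were higher at 5 h than at 2 h, MAPKKK21 was lower, MAPKKK18 was slightly higher, and 5 members did not pass limma's test. So 4 of 9 members were called, beside 72.5% of 20410 genes in either direction, which makes a call in this comparison common. Of all genes 33.6% were called higher and 38.9% lower, and of the members 3 and 1. The called differences of the members were all under 2-fold, and of all genes 4.33% were called at least 2-fold higher and 3.43% at least 2-fold lower.

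The log2 ratio of MAPKKK13 was 4.16 and 4.16 at 5 h, against 3.47 and 3.65 at 2 h, a difference of 0.60 ± 0.067 (limma adjusted p = 0.000112). MAPKKK20 stood at 0.85 and 0.73 at 5 h, against 0.40 and 0.42 at 2 h, a difference of 0.38 ± 0.057 (limma adjusted p = 0.000537). MAPKKK21 stood at 4.33 and 4.45 at 5 h, against 4.88 and 4.78 at 2 h, a difference of −0.44 ± 0.062 (limma adjusted p = 0.000408). In each of these 3 genes the arrays of the 2 times did not overlap. MAPKKK18 stood 0.20 ± 0.058 higher at 5 h (limma adjusted p = 0.0169). That call ended without the first array of 2 h (limma adjusted p = 0.0748), without the second array of 5 h (0.0798) and by the Feature Extraction ratio (0.129). It also ended with an offset of 10 (limma adjusted p = 0.13), without background correction (0.054), with the deposited ratios (0.17) and with plain local background subtraction (0.451).

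The members not called had small differences with narrow unadjusted 95% intervals. MAPKKK15 stood at −0.19 on the log2 scale (−0.37 to −0.01, limma adjusted p = 0.0588) and passed when the first array of 2 h (0.0197) or the second of 5 h (0.0129) was left out. It also passed with the replicate number as a block (limma adjusted p = 0.0105), without background correction (0.0271), with bright probes only (0.0388) and with scaling between arrays (2.17e-05). MAPKKK16 stood at −0.04 (−0.15 to 0.08), MAPKKK17 at −0.01 (−0.17 to 0.14) and MAPKKK19 at −0.02 (−0.17 to 0.14). These 4 intervals leave out a 2-fold difference in either direction. With scaling between arrays that no longer held for MAPKKK15, MAPKKK17 and MAPKKK19, while MAPKKK16 stood at −0.42 ± 0.052. MAPKKK14 stood at −0.07 (−0.27 to 0.13), a value that rests on a 0 h signal not well above background. It passed as lower at 5 h by the Feature Extraction ratio (−0.29, limma adjusted p = 0.0258) and with the deposited ratios (−0.31, limma adjusted p = 0.0191). Both rest on that same 0 h signal.

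When the arrays were also scaled to one common spread, all 9 members were called and 8 of them lower at 5 h. Of 20410 genes 14034 were called under that setting, 6201 higher and 7833 lower. MAPKKK13 then stood at −0.44 and MAPKKK18 at −1.19, opposite to the values above, and MAPKKK20 alone was higher. MAPKKK19 stood at −1.18, MAPKKK15 at −1, MAPKKK17 at −0.92, MAPKKK16 at −0.42 and MAPKKK14 at −0.36. Such scaling assumes that both times spread the ratios equally. The values above are on the arrays' own scale.

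The 2 channels behind each difference were then compared after normalization between arrays. For MAPKKK13 the salt channel was higher on the 5 h arrays by 0.86 on the log2 scale and the 0 h channel by 0.26. For MAPKKK21 the salt channel differed by −0.45 and the 0 h channel by −0.01. For MAPKKK18 the salt channel differed by 0.35 and the 0 h channel by 0.16. For MAPKKK20 the salt channel differed by 0.14 and the 0 h channel by −0.24, so the larger part of its difference lay in the 0 h channel. Over all genes the 0 h channel differed between the arrays of the 2 times with an SD of 0.0629 and the salt channel with one of 0.429 (from the median absolute deviation). The 0 h shifts of MAPKKK13 and MAPKKK20 were larger than that 0 h SD, and their 0 h levels did not overlap between the times. Genes of every brightness enter this SD, and the spread among genes as bright as these was not computed. The 0 h shift of MAPKKK18 was also larger than this SD, but its 0 h levels overlapped between the times. They were 7.75 and 7.53 on the 2 h arrays and 7.85 and 7.74 on the 5 h arrays. Whether the 0 h RNA of the 2 times was the same extract is not given.

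**Figure D4:**
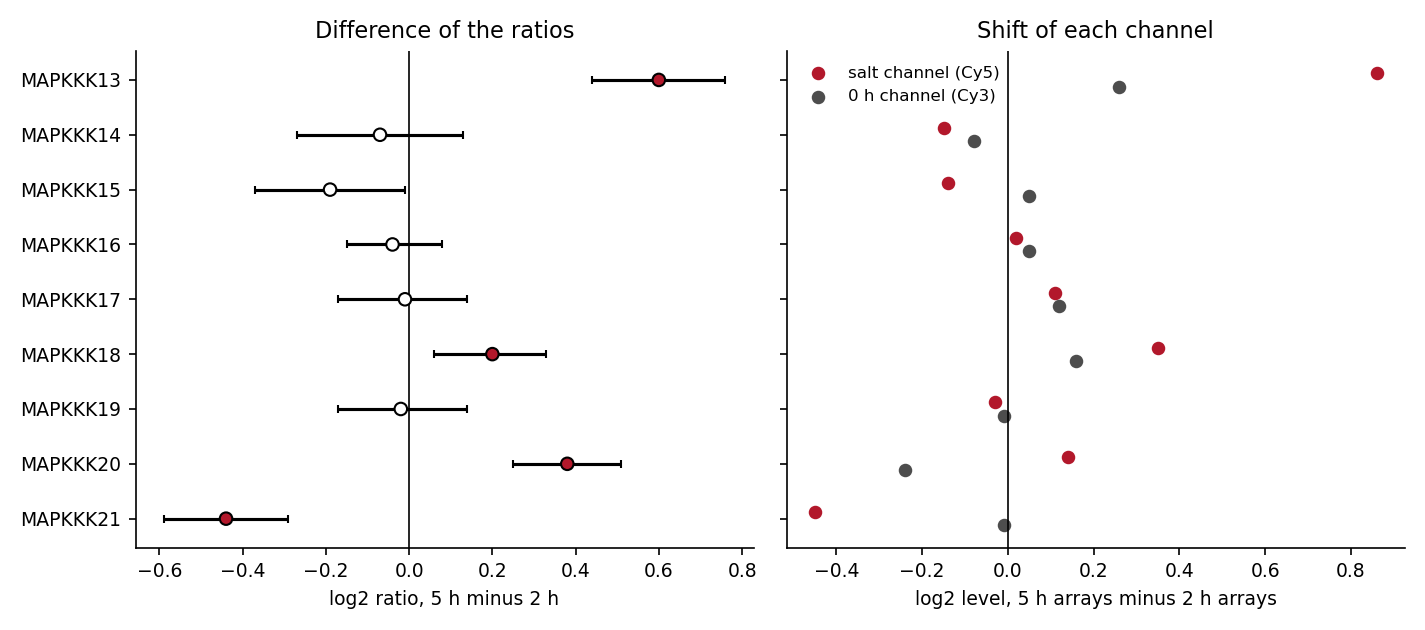
Left, log2 ratio at 5 h minus that at 2 h for each member, with unadjusted 95% intervals of limma's fit, filled where the adjusted p is under 0.05. Right, the shift of the salt channel (red) and of the 0 h channel (grey) on the log2 scale, 5 h arrays minus 2 h arrays. MAPKKK13 and MAPKKK21 differ mainly in the salt channel and MAPKKK20 mainly in the 0 h channel.

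The other MEKK-type MAPKKK genes had log2 changes between −0.59 and 1.66 over both times. Of 12 listed and measured, 8 were higher and 2 lower at 2 h, with 2 at least 2-fold higher, and 7 were higher and 4 lower at 5 h, again with 2 at least 2-fold higher. Their median log2 change was 0.33 at 2 h and 0.18 at 5 h, beside 0 over all genes, of which 81.9% were called at 2 h and 87.7% at 5 h. Called at least 2-fold higher were 9.75% of all genes at 2 h and 13.6% at 5 h. WRKY19, which joins a WRKY domain to a kinase, rose by 1.18 ± 0.047 at 2 h and 1.64 ± 0.047 at 5 h. MEKK1, an upstream kinase of stress and immune cascades, rose by 1.11 ± 0.035 and 0.97 ± 0.035. MAPKKK3, a kinase of immune cascades, rose by 0.69 ± 0.034 and 1.66 ± 0.034. By the Feature Extraction ratio 7 were higher and 4 lower at 2 h, with the median of all genes at −0.145 at 2 h and −0.135 at 5 h, so that each log2 change by that ratio is to be read against these. Of the 20412 kept genes that ratio called 6565 higher and 10354 lower at 2 h. The limma adjusted p of the cascade genes named here and in the next paragraphs was at most 0.00682 at 2 h, 0.00646 at 5 h and 0.032 for 5 h against 2 h, for each change called higher, lower, risen or fallen.

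Of 15 Raf-like MAPKKK genes, the other large MAPKKK group, 13 were higher and 1 lower at 2 h (median 0.30), and 12 were higher and 0 lower at 5 h (median 0.47). Of all genes 41.4% were called higher and 40.5% lower at 2 h, and 44.1% and 43.7% at 5 h, and these shares stand beside the counts of each cascade list. Of the 15 Raf-like genes 1 was at least 2-fold higher at each time, beside 9.75% of all genes at 2 h and 13.6% at 5 h. EDR1, which restrains defence and cell death, rose by 1.15 ± 0.046 at 2 h, and RAF11 rose by 1.08 ± 0.034 at 5 h. The next in size were AT5G11850 with 0.70 ± 0.038 at 2 h and AT1G16270 with 0.90 ± 0.036 at 5 h. By the Feature Extraction ratio 9 were higher and 4 lower at 5 h, beside 7622 higher and 10212 lower of the 20412 kept genes.

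The module named in connection with these MAPKKK genes did not move as 1 unit. MKK3 stood at −0.18 ± 0.035 at 2 h and 0.14 ± 0.035 at 5 h, and at −0.33 and 0.01 by the Feature Extraction ratio. MPK14 rose by 0.74 ± 0.039 at 2 h and 2.20 ± 0.039 at 5 h, and MPK7 rose by 0.47 ± 0.035 and 1.45 ± 0.035. MPK14 was higher at 5 h than at 2 h by 1.47 ± 0.055 and MPK7 by 0.98 ± 0.05. MPK2 fell by 0.67 ± 0.035 at 5 h and did not pass at 2 h (−0.04 ± 0.035). MPK1 fell by 0.16 ± 0.04 at 5 h and did not pass at 2 h (0.04 ± 0.04).

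Among MAP kinase kinases 7 of 10 were measured, 6 of them higher and 1 lower at 2 h, and 4 higher and 2 lower at 5 h. MKK9, a kinase linked to ethylene and to salt, rose by 2.52 ± 0.042 at 2 h and 2.92 ± 0.042 at 5 h. MKK6, which acts in cell division, fell by 1.32 ± 0.035 at 5 h. MKK1, a stress-activated kinase downstream of MEKK1, rose by 0.70 ± 0.034 at 2 h and did not pass at 5 h (−0.07 ± 0.034). By the Feature Extraction ratio 3 were higher and 3 lower at 5 h, beside 7622 higher and 10212 lower of the 20412 kept genes.

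Of 20 MAP kinases 19 were measured, 11 higher and 3 lower at 2 h (median 0.35), and 13 higher and 5 lower at 5 h (median 0.28), beside 41.4% of all genes higher and 40.5% lower at 2 h and 44.1% and 43.7% at 5 h. At least 2-fold higher were 5 at 2 h and 7 at 5 h, beside 9.75% and 13.6% of all genes. MPK11, a relative of the defence kinase MPK4, rose by 3.20 ± 0.035 at 2 h and 2.92 ± 0.035 at 5 h. MPK17 rose by 1.45 ± 0.04 at 2 h and 1.50 ± 0.04 at 5 h. By the Feature Extraction ratio 10 were higher and 7 lower at 2 h, beside 6565 higher and 10354 lower of the 20412 kept genes.

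MAP kinase phosphatases, which switch the cascades off, numbered 6 higher and 2 lower of 10 at 2 h (median 0.22), and 7 higher and 2 lower at 5 h (median 0.34). The 3 that were at least 2-fold higher at each time were protein phosphatases of the 2C type. Called at least 2-fold higher were 9.75% of all genes at 2 h and 13.6% at 5 h. PP2C5 rose by 2.55 ± 0.041 at 2 h and 2.23 ± 0.041 at 5 h. AP2C1, a wound-induced phosphatase of MAP kinases, rose by 2.55 ± 0.038 and 1.67 ± 0.038. By normalized channel levels AT1G07160 was at least 10.1-fold higher at 2 h and at least 10.9-fold at 5 h. Its 0 h signal was not well above background (log2 level 9.71 at 2 h and 9.81 at 5 h, against 6.36 at 0 h). Over the alternative settings its log2 change at 5 h went down to 3, below that bound. It passed the filter on dim probes only through its salt signal, so its test against 0 h is not given. By the Feature Extraction ratio the phosphatases were higher in 5 cases and lower in 3 at 2 h, and higher in 6 and lower in 3 at 5 h. Of the 20412 kept genes that ratio called 6565 higher and 10354 lower at 2 h, and 7622 and 10212 at 5 h.

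**Figure D5:**
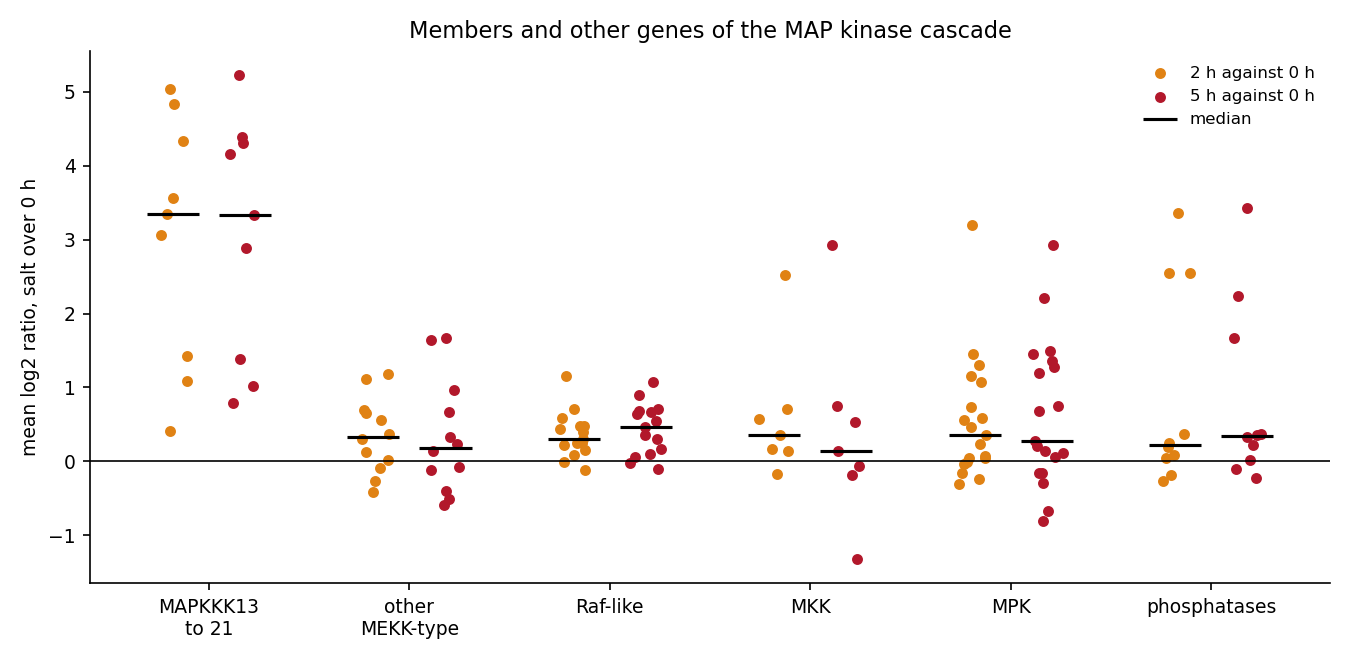
Mean log2 ratio of salt over 0 h at 2 h and 5 h for the 9 members and for the measured genes of 5 other lists of the MAP kinase cascade, 1 point a gene, with black bars at the medians. The members' medians stand at 3.35 and 3.34, and those of the other lists between 0.14 and 0.47. The isolated high points are MKK9, MPK11 and the phosphatases PP2C5, AP2C1 and AT1G07160.

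These phosphatases adjoin 2 of the members on the chromosome. AT1G07160 is the next protein-coding gene after MAPKKK13 in the TAIR10.1 gene table, and AP2C1 is the nearest one on one side of MAPKKK14. Of 18 genes next to the 9 members 16 were measured. At 2 h 12 were higher and 2 lower, 3 of them at least 2-fold higher, and at 5 h 9 were higher and 5 lower, again 3 at least 2-fold higher. AT1G07160 is counted among these, though it passed the filter only through its salt signal. Of all genes 41.4% were higher, 40.5% lower and 9.75% at least 2-fold higher at 2 h, and 44.1%, 43.7% and 13.6% at 5 h. The remaining one of the 3 was AT5G67090, next to MAPKKK19, which rose by 1.41 ± 0.043 at 2 h (limma adjusted p = 3.44e-08) and 1.51 ± 0.043 at 5 h (limma adjusted p = 1.35e-08). The genes on either side of MAPKKK18 rose by 0.53 ± 0.037 (AT1G05090) and 0.15 ± 0.036 (AT1G05120) at 2 h (limma adjusted p = 3.93e-06 and 0.00536). Beside MAPKKK17, AT2G32500 fell by 0.65 ± 0.035 at 2 h (limma adjusted p = 8.71e-07) and by 1.04 ± 0.035 at 5 h (limma adjusted p = 3.41e-08), and AT2G32520 did not pass at 2 h (0.09 ± 0.037). AT3G50300, beside MAPKKK20, fell by 1.03 ± 0.04 at 5 h (limma adjusted p = 7.95e-08). The log2 changes of MAPKKK17 and MAPKKK18 themselves at 2 h were 3.35 and 5.04. The members were chosen on this contrast, so nothing is read from their distance to the genes beside them.

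For the 3 members with the largest mean change, the genes nearest in pattern were found by Euclidean distance over the log2 ratios of the 4 arrays. Nearest to MAPKKK18 were GRX480, a glutaredoxin (distance 0.336, log2 change 4.93 at 2 h and 5.12 at 5 h), AT5G52050, named DTX50 for a detoxification efflux carrier (0.411), and AT5G19110 (0.456). Nearest to MAPKKK21 were STZ, the zinc finger factor also called ZAT10 (0.157), ORA47, an ERF-family factor of jasmonate responses (0.23), and CBF1, a factor of cold responses (0.232). STZ stood at 4.79 at 2 h and 4.48 at 5 h, beside 4.83 and 4.39 for MAPKKK21. Nearest to MAPKKK19 were the NAC factor ATAF2 (0.237), BPS3 (0.301) and AT5G05600 (0.339). The distance over 4 arrays reflects the size of the change at 2 times, and many genes lie close to each other in such a space.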

How the data were processed

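Members, gene lists and tests were chosen with earlier results of these data known. The deposited array files give, for each dye, the median intensity of a spot and of its surroundings as scanned, and an intensity background-subtracted and dye-normalized by Feature Extraction 11.5.1.1, per the file headers (9.3.2.1 per the submitters' processing notes). They also give the log10 ratio of processed Cy5 over Cy3, per the file headers. The deposited series table holds log2 ratios that followed each array's Feature Extraction ratio (r from 0.9998 to 0.9999), shifted by 0.0858 to 0.118, with column medians of 0.0533 to 0.18 and an unstated centring. The array files also hold marks for spots well above background, saturated or outlying, which the authors' software set (other values).

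Ratios were computed with limma 3.58.1 (R 4.3.3): normexp with offset 50, then loess with control spots at weight 0. Spots marked as outliers, 14 to 19 on an array, were dropped. Of 43603 probes 34348 matched 1 gene. The array annotation names an earlier TAIR10 release than the gene table, which served for names and neighbours only, so no coordinates are given. Probes had to clear background at 0 h on 2 or more arrays, or under salt on the 2 arrays of either time, and each gene was read from its brightest such probe (20412 genes). Each time's ratio was tested against 0 and 5 h against 2 h in 1 fit of 4 arrays (2 residual and 5.44 prior degrees of freedom), adjusted by Benjamini-Hochberg over all genes at 0.05. The fit was tested on simulated data. A bound ("at least") sets the mean salt level against a 0 h level, after loess and Aquantile. That 0 h level is the higher of the probe's own and the lowest one well above background on that array. The bound holds for that normalization only, and other settings gave smaller changes at 5 h for MAPKKK14 and AT1G07160. Genes named besides the members were the 2 largest called changes of each cascade list at each time, the MKK3 module, MEKK1, the adjoining genes and the 3 nearest patterns. Same-numbered replicates were not paired by any label.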

Additional observations from a re-analysis of the deposited data

Results flagged for a closer look

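The following differed between 5 h and 2 h of salt by limma's test of the difference itself. Among the members the log2 ratio at 5 h minus that at 2 h was 0.60 for MAPKKK13, 0.38 for MAPKKK20, 0.20 for MAPKKK18 and −0.44 for MAPKKK21 (limma adjusted p = 0.000112, 0.000537, 0.0169 and 0.000408). For MAPKKK20 the larger part of the difference lay in the 0 h channel. Among the other cascade genes, those with a difference of at least 2-fold were MPK14 at 1.47 (limma adjusted p = 4.33e-07) and MKK6 at −1.46 (limma adjusted p = 3.08e-07). The dimmer probe of MAPKKK19, not used in the comparisons, had fitted log2 values of 1.16 at 2 h and 1.19 at 5 h. Its 0 h signal was not well above background on any array, so only the bound of at least 2.13-fold at each time can be read from it.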

How the results depend on the processing

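Against 0 h, the members' log2 changes stayed above 0 under each alternative that gave a value, while their sizes moved. The median over the members at 2 h, 3.35 as reported, was 4.21 with Feature Extraction signals, 3.63 with an offset of 10, 3.47 without background correction, 3.84 with scaling between arrays, 4.32 with the deposited log2 ratios, 3.46 with bright probes only (MAPKKK14 has no value there) and 3.07 with the mean of a gene's probes. At 5 h, 3.34 as reported, it was 4.26, 3.61, 3.46, 2.92, 4.35, 3.75 and 2.89 in the same order. For 5 h against 2 h, scaling between arrays called 9 members in place of 4, beside 14034 of all genes in place of 14794. It turned MAPKKK13 to −0.44 and MAPKKK18 to −1.19. The other changes of sign were in members that passed neither with the reported setting nor with the alternative named. MAPKKK14 was at 0.01 with an offset of 10 and 0.27 with plain local background subtraction, an alternative chosen after seeing the data. MAPKKK17 was at 0.10 with Feature Extraction signals, 0.01 with median centring and 0.07 with the deposited ratios. MAPKKK19 was at 0.01 with an offset of 10, with plain subtraction and with the mean of its probes, and at 0.00 with median centring. Leaving out 1 array at a time gave −0.18 to 0.03 for MAPKKK14, −0.07 to 0.05 for MAPKKK17 and −0.11 to 0.07 for MAPKKK19. The cause of these moves was not tested. MAPKKK20 was called higher under each alternative, MAPKKK13 higher under each but scaling (lower there), and MAPKKK21 lower under each but plain subtraction (limma adjusted p = 0.0564). Genes called for 5 h against 2 h ranged from 13242 to 15034 over the alternatives. Replicate differences of 2 h and 5 h correlated at 0.0591 across genes, and a replicate block gave 15019 called genes in place of 14794 and 5 members in place of 4, the added one being MAPKKK15 (limma adjusted p = 0.0105). At 2 h the Feature Extraction ratio gave 38.8% of called genes higher in place of 50.6%.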
